A study of Mus musculus with 12 samples.

Results

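Baseline transcript levels were described in cerebellar granule cell cultures of lethargic mice that received only the control virus. These were the 3 arrays titled as eGFP replicates 1 to 3, out of 12 arrays in the series. Lethargic mice carry a mutation of Cacnb4, which encodes a calcium channel β subunit called β4, and the cultures came from such mice on a 129/SvJ background at postnatal day 7. A lentiviral βA-eGFP construct was present for 12 hours from plating, Ara-C was added against dividing non-neuronal cells, and RNA was taken after 9 days in vitro. The other 9 arrays carried β4a, β4b or β4e in place of eGFP, so the mutation and the virus were shared by every array, and no culture here was free of virus or of wild-type genotype. From each sample 500 ng of RNA were amplified by in vitro transcription, labelled with biotin and hybridised to 1 Affymetrix 3′ expression array. The labels do not say whether replicates were separate litters, animals or platings, or whether pups were pooled, so the spread between the 3 arrays may be partly technical.

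Each value below is the authors' log2 GCRMA intensity, a scale on which a step of 1 is a doubling of the hybridisation signal. Of 45101 probe sets, 34945 were annotated to 1 gene symbol, and keeping the probe set with the highest mean per gene left 18193 genes, which were ranked from 1 (highest mean) downwards. Probe sets differ in how they bind their target and in how far they lie from the 3′ end, so the ranking is an order of signal and not of transcript number. The 39 olfactory receptor genes on the arrays, genes of smell receptors that granule cells are not known to use, lay between 2.11 and 3.60 with a median of 2.79, and 0 of them passed 4 on any array. A level of 4, chosen with earlier results of these data known, was used as the mark above which a gene is called measured. It lies above the 95th percentile of the olfactory receptor genes, which was 3.37. On all 3 arrays 9816 genes (54.0%) lay above 4, 7143 lay under it on all 3, and 1234 lay above it on some arrays only. This 54.0% is the background against which the counts of each gene list are to be read. The 3 arrays were not alike in every respect: Xist was high on replicate 3 only, and replicates 1 and 2 stood apart in glial and in activity-regulated genes, as given with those genes. Values given as mean ± SD are over the 3 arrays (n = 3 throughout), and 3 values in a row are replicates 1, 2 and 3. Counts of list members that were highest or lowest on an array are given below without the same share over all genes. None of these counts can therefore be read as particular to its list.

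Granule cells are the small, densely packed glutamatergic neurons of the cerebellar cortex. They receive mossy fibre input that is shaped by tonic inhibition through GABA-A receptors holding the α6 subunit, and they send parallel fibres to Purkinje cells. After birth they arise from progenitors of the external granular layer, which divide under Sonic hedgehog and express Atoh1, and on leaving the cycle they switch on Neurod1, then Gabra6 and Cbln3. Calcium entry through P/Q-type and N-type channels drives release from their terminals, and β subunits such as β4 carry the pore subunits to the membrane and set their gating.

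The 4 genes that mark the cells stood near the top of the ladder. Neurod1, a basic helix-loop-helix factor of granule cell differentiation, measured 14.39, 14.35 and 14.29 and held rank 7. Zic1, a zinc finger factor of the granule lineage, measured 14.38, 14.26 and 14.37 at rank 8. Gabra6, the α6 subunit, measured 13.79, 13.90 and 13.72 at rank 48. Cbln3, a secreted partner of cerebellin 1, measured 13.21, 13.34 and 13.28 at rank 146. Their SDs were 0.05, 0.07, 0.09 and 0.06, less than the median SD of 0.14 among genes above 12. These values are of the brightest probe set of each gene. The other probe sets gave 13.85 ± 0.18 for Neurod1, 14.12 ± 0.07 for Zic1, 11.77 ± 0.07 for Gabra6 and 9.36 ± 0.57 for Cbln3. By their brightest probe sets, all 4 markers of the labelled cell type were therefore high on each array.

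The promoters of these 4 genes are printed because they differ in their content of CpG dinucleotides although the genes lie together on the ladder. Each is the RefSeq window of mouse build GRCm38.p6 from 250 bases before to 50 bases after the gene's start, 5′ to 3′ on the gene's strand, with every CG in capitals. Gabra6 lies at chr11:42321023-42321322, Cbln3 at chr14:55884207-55884506, Neurod1 at chr2:79456587-79456886 and Zic1 at chr9:91365719-91366018, all on the minus strand.
Gabra6: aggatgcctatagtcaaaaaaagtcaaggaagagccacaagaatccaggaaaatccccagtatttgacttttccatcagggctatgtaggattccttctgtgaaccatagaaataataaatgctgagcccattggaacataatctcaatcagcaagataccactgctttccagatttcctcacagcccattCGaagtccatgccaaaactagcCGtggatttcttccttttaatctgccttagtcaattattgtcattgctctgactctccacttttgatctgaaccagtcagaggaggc
Cbln3: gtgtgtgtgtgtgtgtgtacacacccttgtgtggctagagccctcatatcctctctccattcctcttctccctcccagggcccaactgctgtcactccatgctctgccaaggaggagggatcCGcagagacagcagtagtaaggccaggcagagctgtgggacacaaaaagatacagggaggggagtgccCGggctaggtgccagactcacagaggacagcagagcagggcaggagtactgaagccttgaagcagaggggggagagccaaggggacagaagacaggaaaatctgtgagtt
Neurod1: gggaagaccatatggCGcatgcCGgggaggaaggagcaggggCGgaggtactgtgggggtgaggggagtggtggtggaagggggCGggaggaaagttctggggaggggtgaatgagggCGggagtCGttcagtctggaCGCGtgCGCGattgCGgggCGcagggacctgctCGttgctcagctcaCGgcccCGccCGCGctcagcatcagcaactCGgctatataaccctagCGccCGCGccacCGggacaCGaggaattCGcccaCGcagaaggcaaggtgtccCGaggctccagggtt
Zic1: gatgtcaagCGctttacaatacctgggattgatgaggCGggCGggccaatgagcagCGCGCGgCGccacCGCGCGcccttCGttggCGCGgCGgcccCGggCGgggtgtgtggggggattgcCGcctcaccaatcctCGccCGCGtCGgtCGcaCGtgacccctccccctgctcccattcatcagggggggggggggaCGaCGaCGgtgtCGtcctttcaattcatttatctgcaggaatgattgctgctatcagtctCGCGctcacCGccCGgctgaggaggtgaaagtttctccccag
The Gabra6 and Cbln3 windows each held 2 CpG, at 0.16 and 0.08 of the number that their C and G content would give. The Neurod1 window held 26 at a ratio of 0.84, and the Zic1 window held 31 at a ratio of 0.97. CG reads the same on both strands and no other motif was searched, so no overlap arose. Among all 27025 RefSeq windows a share of 36.4% had a ratio above 0.6, against 57.0% of the 14452 windows that belonged to genes of the ladder.

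Content of CpG differed along the ladder. The share of windows above 0.6 was 82.1% among genes above 12, 84.2% from 10 to 12, 79.9% from 8 to 10, 78.4% from 6 to 8, 66.9% from 4 to 6, and 29.1% under 4. Lists of genes used in every cell were mostly CpG-rich, with 13 of 14 ribosomal protein windows and 17 of 18 of oxidative phosphorylation. So were other lists, such as cell cycle (15 of 17) and activity-regulated genes (19 of 23). The granule identity list had 12 of 21 (57.1%), close to the 57.0% of all genes of the ladder. Most of its members had means above 8, however, where the shares by rung were higher, at 79.9% to 84.2%. The astrocyte list had 4 of 20 and the microglia list 1 of 15. Gabra6 and Cbln3 thus belonged to the minority of genes above 12 with a CpG-poor window. A window is a stretch of letters around 1 annotated start, and whether it acts as the promoter in these cells was not tested.

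**Figure D1:**
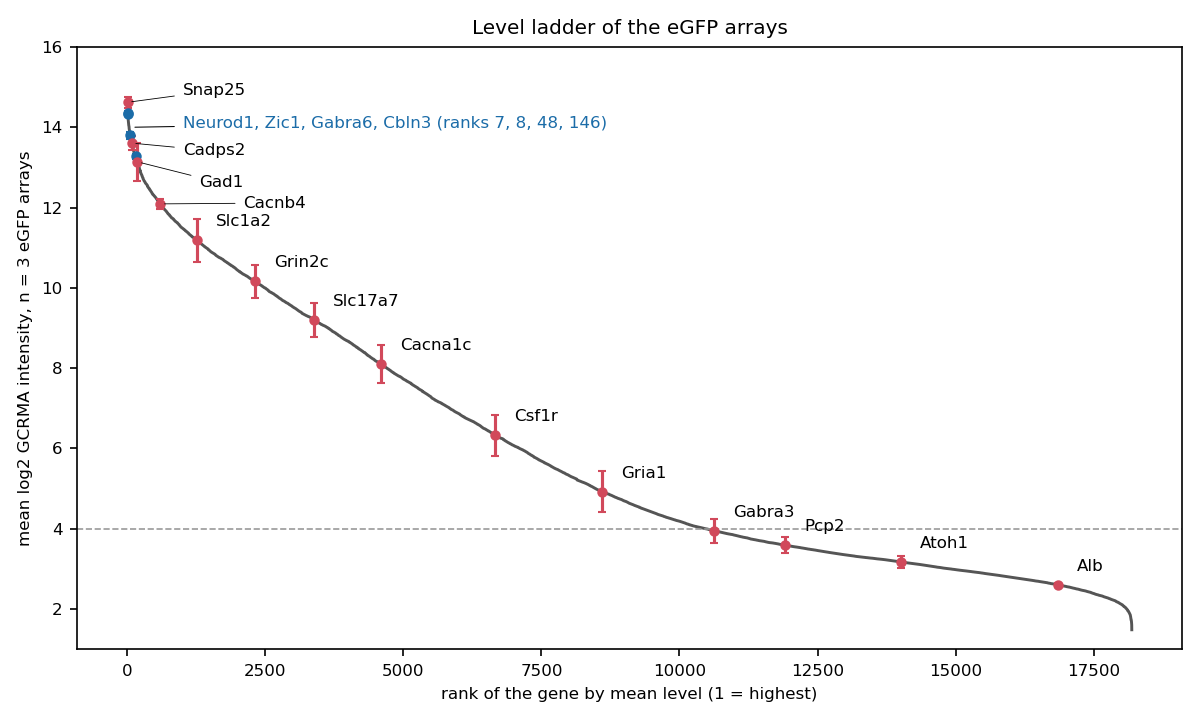
Mean log2 GCRMA intensity (y axis, with SD as bars over the 3 eGFP arrays) against the rank of the gene (x axis) for 18193 genes, with the 4 granule markers in blue, other named genes in red and the level of 4 dashed. The markers lie at ranks 7, 8, 48 and 146, and the curve crosses 4 with 7729 genes below it.

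The shape of the ladder was uneven. Only 638 genes (3.51%) had a mean above 12, 1851 lay from 10 to 12, 2207 from 8 to 10, 2403 from 6 to 8 and 3365 from 4 to 6, with 7729 under 4. The median SD over the arrays was 0.14 above 12, 0.33 from 6 to 8, and 0.12 under 4, where values were compressed near background. Across the 18193 genes the arrays correlated with Pearson's r of 0.980 to 0.988, which is a correlation across genes and not across independent samples. The steadiest genes with a mean above 10 were Tent4b (11.12 ± 0.01), Lemd3 (11.03 ± 0.01), Epc2 (11.48 ± 0.01), Dnaja1 (12.53 ± 0.01), Sdhd (11.18 ± 0.01) and Arfgef1 (10.38 ± 0.01). These encode a poly(A) polymerase, an inner nuclear membrane protein, an enhancer of polycomb homologue, a co-chaperone, a subunit of succinate dehydrogenase and an Arf exchange factor.

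The 20 genes at the top mixed neuronal products with those of every cell. The neuronal ones were Gpm6a, a membrane glycoprotein of neurites (14.73, 14.52 and 14.68), Snap25, the SNARE of synaptic vesicle fusion (14.51, 14.78 and 14.58), Neurod1, Zic1, Nrep (14.32 ± 0.07) and the transcriptional repressor Zbtb18 (14.11 ± 0.18). Genes of energy supply were Cox6a1 (14.60 ± 0.06), Mdh1 (14.16 ± 0.12) and Uqcrb (14.15 ± 0.12). Protein synthesis and folding gave Rps29 (14.57 ± 0.06), Eef1a1 (14.17 ± 0.09), Hspa8 (14.18 ± 0.12) and Rps28 (14.06 ± 0.05). The others were Tpt1 (14.51 ± 0.03), the ferritin heavy chain Fth1 (14.34 ± 0.28), the actin Actb (14.33 ± 0.02), the 14-3-3 protein Ywhab (14.20 ± 0.09), Itm2b (14.15 ± 0.08), and Mbp, which is taken up with the glial genes. Neighbours in this order mostly overlapped in range, so single ranks among them should not be read as differences.

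The first place went to Pik3cd, a phosphoinositide 3-kinase subunit known from leukocytes, at 14.58, 14.72 and 14.71. That level came from 1 of 6 probe sets annotated to the gene, while the other 5 averaged 2.59 to 4.03. The probe sets of Pik3cd therefore did not give 1 level for the gene, and its rank rests on a single probe set. Disagreement of this kind was common: among 385 list members with several probe sets, 131 had probe sets more than 4 apart. The 6 members with the widest gaps were Cpe (13.90 against 2.76), Tmsb10 (13.69 against 2.92), Cox5b (13.57 against 2.98), Kcnd2 (13.24 against 2.81), Ank2 (12.73 against 2.29) and Mbp (14.23 against 3.80). Taking the brightest probe set lifts such genes, and a low value of a gene with 1 probe set does not show that its transcript was absent.

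By name, 18 of the top 100 genes were of the respiratory chain or ATP synthase (Nduf, Sdh, Uqcr, Cyc, Cox and Atp5 names). A further 9 were ribosomal proteins, and 5 belonged to the list of granule identity. In the top 500 these counts were 51, 32 and 12. How many genes of the whole ladder bear such names was not counted, so these counts describe the top only. Levels were then followed through 36 lists written for this description, which held 664 genes of the ladder, and 392 of these lay above 4 on all 3 arrays. The lists with the highest medians were oxidative phosphorylation (13.57, 23 of 23 members above 4), cytosolic ribosomal proteins (13.07, 17 of 18), glycolysis and housekeeping (12.27, 24 of 24), granule identity (11.32, 25 of 26), synaptic vesicle and active zone (11.10, 33 of 36) and pan-neuronal structure (10.92, 26 of 26). At the other end stood blood cell genes (3.12, 0 of 10), genes of other organs (3.19, 3 of 29), choroid plexus and ependyma (3.29, 4 of 12), nicotinic and serotonin receptors (3.30, 2 of 21), transmitter synthesis and transport (3.39, 7 of 19) and endothelium and pericytes (3.41, 0 of 15).

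**Figure D2:**
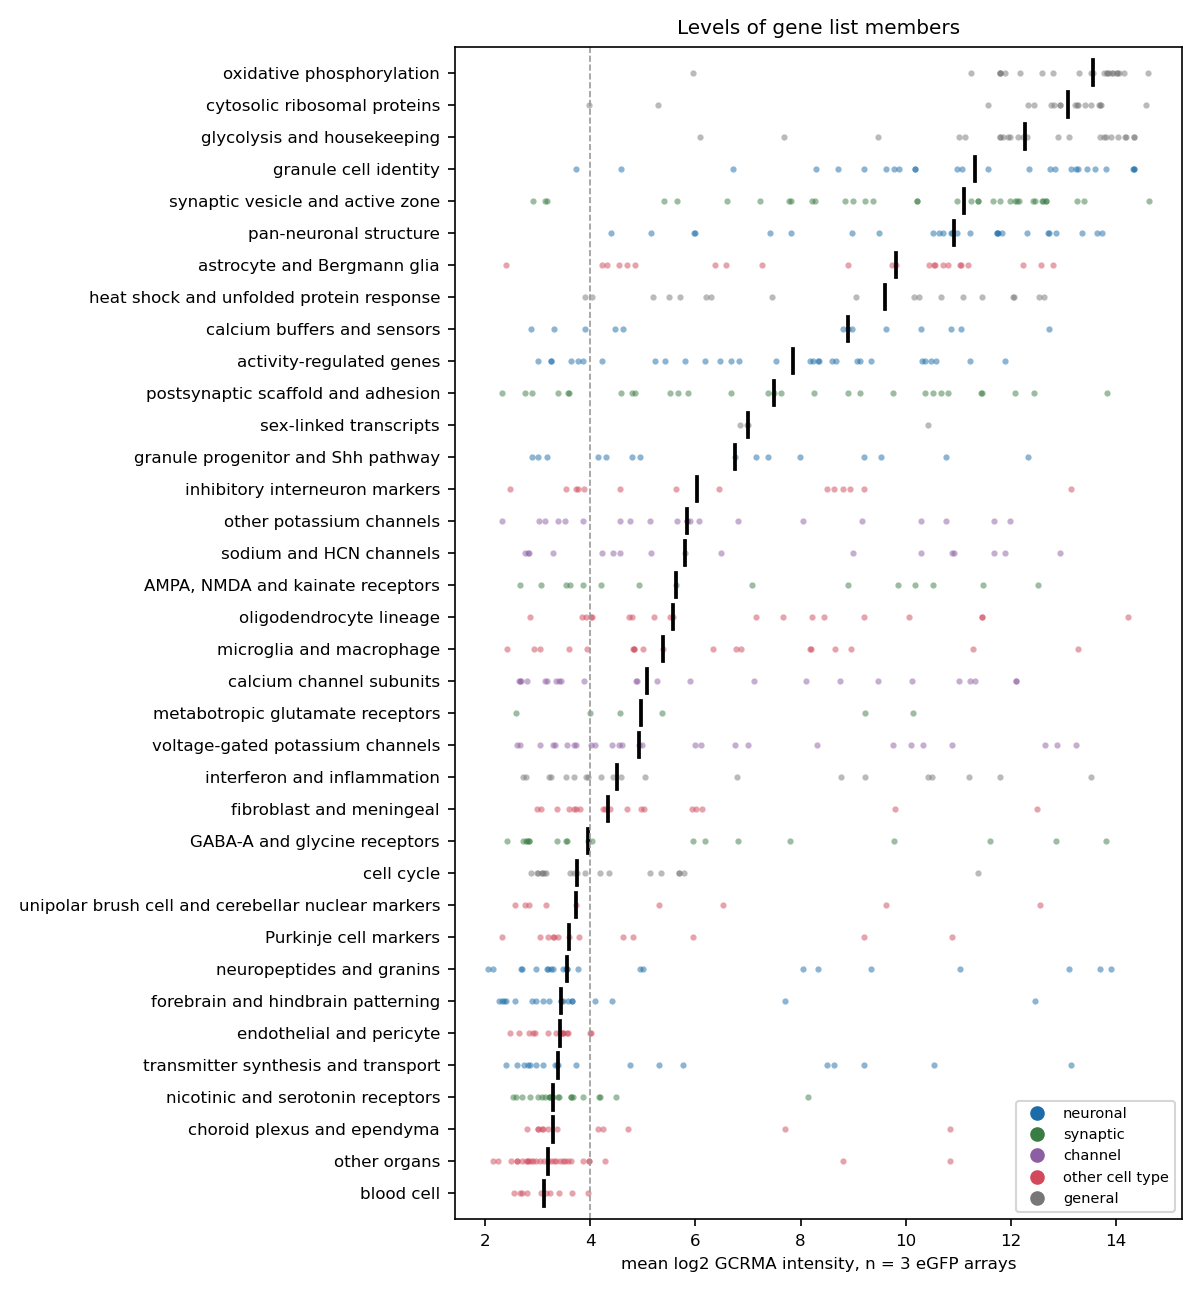
Mean log2 GCRMA intensity (x axis, n = 3 eGFP arrays) of each member of 36 gene lists, 1 row per list, with the list's median as a black bar and the level of 4 dashed. Medians run from 13.57 for oxidative phosphorylation to 3.12 for blood cell genes.

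The energy and translation lists set the upper end. In oxidative phosphorylation Cox6a1 (14.53, 14.63 and 14.64), Uqcrb (14.21, 14.23 and 14.01) and the ADP/ATP carrier Slc25a4 (14.03, 14.11 and 13.99) led. The lowest were Ndufs1 (11.23 ± 0.20) and Cox7c (5.95 ± 0.67). Replicate 2 was the highest array for 19 of the 23 members, and the array medians were 13.48, 13.71 and 13.61. Among ribosomal proteins Rps29, Rpl13a (13.71 ± 0.11) and Rplp2 (13.69 ± 0.15) led, and Rps6 (5.28 ± 0.44) and Rps27 (3.98 ± 0.16) lay far below the other 16. Here replicate 1 was highest for 16 of 18, with array medians of 13.23, 12.93 and 13.08. Differences between the arrays were thus small in these lists but ran through most of their members, and their source was not tested. Fth1, Actb and Hspa8 headed the housekeeping list, and the transcription factor Tbp (7.69 ± 0.10) and the lysosomal Gusb (6.09 ± 0.97) closed it.

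Granule identity genes filled the upper rungs. Above 12 stood 12 of the 26, led by Neurod1, Zic1 and Nrep, followed after Gabra6 by Cadps2, a priming factor of dense-core vesicles (13.43, 13.62 and 13.76), and Chn2, a Rac GTPase-activating protein (13.56, 13.24 and 13.52). The secreted Reln (12.86, 12.48 and 13.14) and the cadherin Fat2 (11.82, 12.80 and 12.42) were in the same group, as were Nfix and Nfib. Zic2 (12.50, 11.41 and 10.79) was the member that varied most, and Pax6 (10.98 ± 0.42), Meis1 (10.17 ± 0.48) and Neurod2 (8.29 ± 0.63) stood lower. Barhl1, a homeobox factor of granule precursors, was near the mark at 4.58 ± 0.09, and Meis2 was under it at 3.73 ± 0.28. Ranges of successive members mostly overlapped, while, for example, those of Nrep and Gabra6 and of Zic4 (6.71 ± 0.80) and Barhl1 did not.

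Genes of dividing granule progenitors were split. Ptch1, the Sonic hedgehog receptor, measured 12.00, 12.77 and 12.18, and the cyclin Ccnd1 (11.46, 10.61 and 10.22) and the co-receptor Boc (9.17, 10.07 and 9.35) followed. Atoh1 (3.17 ± 0.16), the hedgehog target Gli1 (2.90 ± 0.04) and the hedgehog-binding Hhip (3.01 ± 0.09) lay in the range of the olfactory receptor genes. The list's median was 6.75, with 10 of 15 above 4. Of 19 cell cycle genes 5 lay above 4 on all 3 arrays, with a median of 3.74, and this count ran from 1 to 11 over the alternatives: it was 8 without replicate 2, 3 with the median over probe sets or without the _x_at and _s_at probe sets, and 1 at a level of 6. Pcna, the clamp of DNA replication and repair, stood apart at 11.40, 11.49 and 11.23. The next were Rrm2 (6.92, 4.60 and 5.84) and E2f1 (5.69 ± 0.27), and the lowest were Tyms (2.98 ± 0.08) and the proliferation marker Mki67 (2.88 ± 0.33).

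Pan-neuronal genes were all measured, with a median of 10.92. The tubulin-binding stathmins Stmn2 (13.89, 13.73 and 13.56) and Stmn3 (13.58, 13.62 and 13.73) led, with the splicing factor Rbfox3, known as NeuN (12.75, 13.81 and 13.50). Ank3, which organises the axon initial segment, was at 12.85 ± 0.05 and Map2, of dendrites, at 12.30 ± 0.29. Spread was widest for Basp1 (12.08, 9.28 and 10.78), Thy1 (7.57, 5.41 and 5.00), Dcx, of migrating young neurons (6.49, 4.54 and 6.88), and Dpysl3 (9.93, 7.73 and 9.25). In 3 of these 4 replicate 2 was the lowest array. The β4-spectrin Sptbn4 (5.16 ± 0.25) and the heavy neurofilament Nefh (4.40 ± 0.03) closed the list. Of the patterning genes only En2, a homeobox gene of midbrain and cerebellum, stood high, at 12.44, 12.48 and 12.43. Otx2 was at 7.70 ± 0.65 and Hoxa5 at 4.41 ± 0.07, while the other 16 had means of at most 4.08, down to En1 (2.31 ± 0.26) and Hoxd10 (2.26 ± 0.14).

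The release machinery was read out almost whole. Of 36 genes of vesicle and active zone 33 lay above 4, and 12 lay above 12. Snap25 was followed by the calcium sensors Syt4 (13.70, 12.91 and 13.57) and Syt1 (13.24, 13.22 and 13.31), and by Syn2 (12.67 ± 0.18), Sv2b (12.67 ± 0.25) and Cplx2 (12.60 ± 0.12). Among paralogues the named member differed by family: Syn2 stood above Syn3 (8.27 ± 1.58) and Syn1 (7.23 ± 0.20), Vamp2 (11.37 ± 0.11) above Vamp1 (5.65 ± 0.83), and Unc13c (10.98 ± 0.16) above Unc13a (8.84 ± 0.65) and Unc13b (5.39 ± 0.43). None of these ranges overlapped between Syn2, Vamp2 or Unc13c and the paralogues named with them, although the order of signals from different probe sets is open to their binding. Rab3b (3.18 ± 0.16), Sv2c (3.13 ± 0.09) and Cplx3 (2.92 ± 0.15) were under 4. Syn3 was the most variable, at 9.46, 6.48 and 8.85.

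On the postsynaptic and adhesion side 20 of 29 lay above 4, with a median of 7.50. Cbln1, the cerebellin that parallel fibres release onto Purkinje cells, measured 13.78, 13.81 and 13.89. The presynaptic adhesion gene Nrxn3 (12.37, 12.46 and 12.47) and the scaffold gene Dlgap1 (12.05, 12.50 and 11.69) came next. Gphn, the scaffold of inhibitory synapses, was at 11.44 ± 0.11. Camk2b (11.42 ± 0.19) was high and Camk2a, its forebrain-rich paralogue, was under 4 (3.59 ± 0.05). Nlgn1 varied most (8.78, 5.52 and 8.20), with Lrrtm1 (7.12, 4.30 and 6.18) and Homer2 (6.23, 3.40 and 4.90), and replicate 2 was the lowest array for all 3. Dlgap2 (2.75 ± 0.20) and Cbln4 (2.32 ± 0.09) were the lowest.

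Glutamate receptor genes spread over the whole ladder. The AMPA subunit gene Gria2, whose product keeps calcium out of the receptor, measured 12.56, 12.23 and 12.78. Next were the kainate subunit Grik2 (11.62, 11.14 and 11.67) and Gria4 (10.34, 9.88 and 11.31). The NMDA subunit Grin2c, which mature granule cells take up, stood at 9.98, 10.64 and 9.88, while Grin2a was under 4 on every array (2.72, 2.53 and 2.76). Grin2b, the subunit of young neurons, was at 8.03, 3.27 and 5.58, and so crossed the mark between arrays. Of the 15 members 9 lay above 4, and replicate 2 was the lowest array for 12. The array medians were 7.83, 4.36 and 5.58, and the middle member was Grin3a, Gria1 and Grin2b in turn. The lowest members besides Grin2a were Grik1 (3.06 ± 0.17) and Grik4 (3.53 ± 0.09). Among metabotropic receptors Grm4 (10.05, 10.39 and 9.98), the presynaptic receptor of parallel fibres, was even, whereas Grm5 (10.78, 6.46 and 10.46) and Grm3 (6.39, 3.80 and 5.92) were low on replicate 2. Of the 6 receptors 3 lay above 4 on all arrays, and 5 did without replicate 2. Grm7 (4.00 ± 0.32) and Grm8 (2.59 ± 0.25) were the lowest.

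Of the GABA-A and glycine receptor genes 7 of 19 lay above 4, below the background share. The high ones were few. Gabra6 came first, then Gabrb2 (13.11, 12.71 and 12.76), the β subunit of glycine receptors Glrb (11.69, 11.63 and 11.48), and Gabrd, the δ subunit that pairs with α6 outside synapses (9.17, 10.51 and 9.66). The ranges of these 4 did not overlap. Gabra4 (7.80 ± 0.70), Gabrb1 (6.81 ± 0.94) and Gabra2 (7.91, 5.17 and 5.45) were in the middle, and the ρ, ε and θ subunit genes were under 4. Gabrq (2.71 ± 0.03) and Gabra5 (2.41 ± 0.13) closed the list. In the nicotinic and serotonin list Chrnb2 (8.25, 8.24 and 7.95) and Chrna7 (4.49 ± 0.38) lay above 4 on all arrays. Without replicate 2 the count was 4, with Htr2c (5.22, 2.92 and 4.39) and Htr7 (4.29, 3.97 and 4.24), and the lowest were Chrna1 (2.59 ± 0.01) and Chrna5 (2.54 ± 0.05).

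The calcium channel genes were of direct interest because the cells carry a mutated β4. Cacnb4 itself measured 12.03, 12.01 and 12.24, at rank 597. Its other probe sets averaged 10.88 and 9.74, so all 3 lay well above 4. Where these probe sets lie relative to the lethargic mutation was not checked, so the signal says nothing about the mutation or about intact β4 protein. Of the other β subunit genes on the ladder Cacnb1 measured 3.97, 3.67 and 3.98 and Cacnb2 measured 3.36, 3.42 and 3.51. Both were under 4 on all 3 arrays, and their ranges did not overlap with each other or with that of Cacnb4. Cacnb3, a further β subunit gene, was not among the 24 measured members of the list. Its level is not known here, so these values do not show that every other β subunit gene was low.

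Among the pore subunits Cacna1e, of R-type channels, was first with 11.97, 12.11 and 12.22. Cacna1a, of P/Q-type channels, measured 11.25, 11.29 and 11.41, and Cacna1b, of N-type channels, measured 9.97, 10.27 and 10.12. The ranges of these 3 did not overlap, and each had an SD of at most 0.15. Their order rests on the brightest probe set of each gene. The other probe set of Cacna1e averaged 3.05, those of Cacna1a averaged 8.69, 5.59 and 3.45, and the dimmest of Cacna1b averaged 4.33. The order is therefore one of signals and not of transcripts. The L-type genes were less even, with Cacna1d at 9.09, 7.70 and 9.46 and Cacna1c at 8.58, 7.64 and 8.10, and replicate 2 was the lowest for both. Of T-type genes Cacna1g was at 5.65, 4.74 and 5.40 and Cacna1h was under 4 at 2.80 ± 0.04. Cacna1f, of retina (3.17 ± 0.06), and Cacna1s, of skeletal muscle (2.65 ± 0.10), lay at the level of the olfactory receptor genes. Of the α2δ genes Cacna2d1 (11.22 ± 0.26) and Cacna2d3 (11.02 ± 0.70) stood with the neuronal pores, Cacna2d2 (8.15, 6.12 and 7.05) lower and Cacna2d4 (3.14 ± 0.12) under 4. Among γ subunits Cacng2, known as stargazin, was highest at 9.47 ± 0.39, and Cacng3 (2.67 ± 0.11) was the lowest. In all 13 of 24 members, 54.2%, lay above 4, a share close to the 54.0% of all genes.

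**Figure D3:**
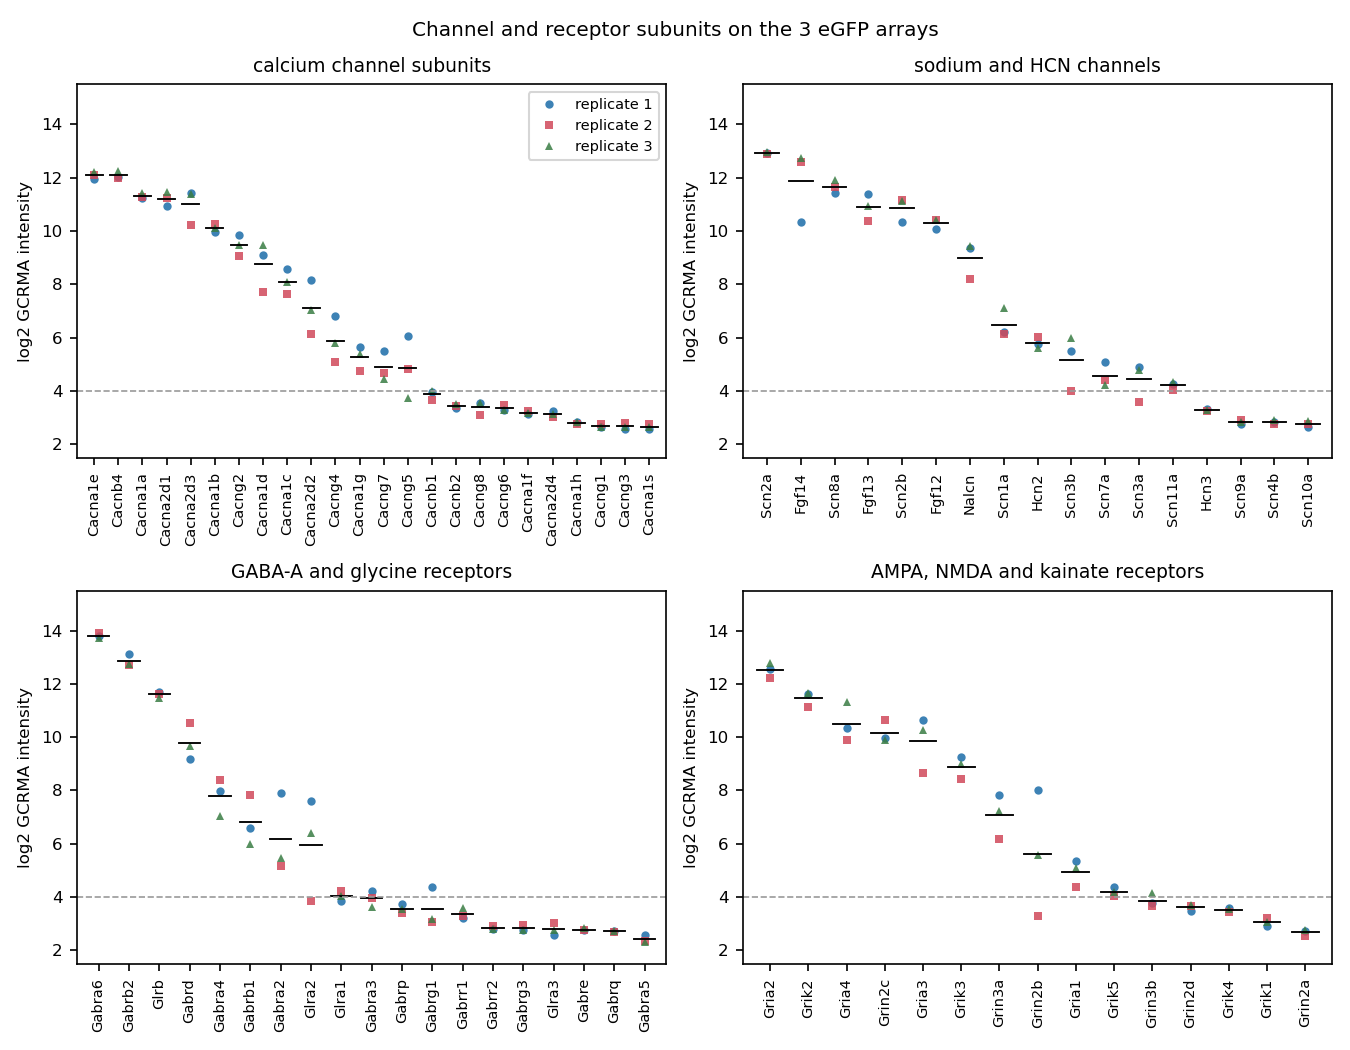
Log2 GCRMA intensity (y axis) of each member of 4 channel and receptor lists on the 3 eGFP arrays (colour and symbol give the replicate, bars the mean), ordered by mean, with the level of 4 dashed. Cacna1e and Cacnb4 have means of 12.10 and 12.09 and Cacna1a one of 11.32, while Grin2b spans 8.03 to 3.27.

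Sodium channel genes were led by Scn2a at 12.91, 12.89 and 12.98. Fgf14, an intracellular modifier of sodium channels, gave 10.32, 12.58 and 12.74 and so was low on replicate 1. Scn8a, the channel of mature initial segments, measured 11.43, 11.65 and 11.93, and the ranges of Scn2a and Scn8a did not overlap. Scn1a was at 6.48 ± 0.54 and the pacemaker channel gene Hcn2 at 5.81 ± 0.20. Scn4b (2.82 ± 0.07) and Scn10a, of sensory neurons (2.76 ± 0.12), were the lowest of 17, of which 11 lay above 4.

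Among voltage-gated potassium channel genes 16 of 27 lay above 4. The A-type channel gene Kcnd2 measured 13.35, 13.09 and 13.29, Kcna1 measured 12.43, 13.41 and 12.77, and Kcnc1, of fast-spiking channels, measured 12.67, 12.43 and 12.86. Replicate 2 was the highest array for 10 of the 27 and the lowest for 15. Kcnd3 (10.52, 8.87 and 9.86), Kcnh1 (7.68, 5.53 and 7.04) and the auxiliary Dpp6 (10.62, 9.30 and 10.37) were lowest on it, while Kcnip4 (5.22, 7.79 and 5.27), Kcnip2 (6.07, 8.28 and 6.62), Kcnq3 (8.02, 9.50 and 7.40) and Kcna4 (3.17, 5.13 and 2.91) were highest on it. Kcna5 (2.67 ± 0.22) and Kcnc2 (2.60 ± 0.04) closed the list. Of the other potassium channels the leak channel gene Kcnk1 (12.08, 12.18 and 11.71) and the G protein-gated Kcnj3 (11.20, 12.08 and 11.71) and Kcnj9 (10.47, 11.21 and 10.63) led, and replicate 2 was the highest array for 16 of 21. Kcnn3 (3.03 ± 0.11) and Kcnj2 (2.32 ± 0.11) were the lowest.

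Transmitter genes included both glutamatergic and GABAergic names. Slc17a7, the vesicular glutamate transporter of granule cells, measured 9.23, 9.62 and 8.78. Gad1, the enzyme of GABA synthesis, measured 13.51, 12.62 and 13.29, but its second probe set averaged 7.43. Gad2 (9.08, 8.19 and 8.62) and the vesicular GABA transporter Slc32a1 (9.57, 7.33 and 8.58) were also measured, and replicate 2 was the lowest array for all 3. Slc17a6 measured 7.33, 2.69 and 5.90 and so was under 4 on replicate 2 only. Glutamine synthetase, Glul, of astrocytes, was at 10.54 ± 0.29. Tyrosine hydroxylase, Th (2.60 ± 0.06), and the choline transporter Slc5a7 (2.40 ± 0.10) were the lowest of 19, of which 7 lay above 4.

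The calcium buffers and peptides were selective. The sensor gene Vsnl1 (12.57, 12.90 and 12.71) led, with S100b, of glia (11.58, 10.96 and 10.59), and Hpcal1 (10.86 ± 0.30). Calb2, the calretinin of granule cells, was at 8.75, 10.48 and 9.64. Nrgn (3.31 ± 0.09) and Rcvrn (2.88 ± 0.11) were under 4. The peptide-processing enzyme Cpe (13.91, 13.98 and 13.82) and the granins Chgb (13.25, 14.26 and 13.53) and Scg5 (12.97, 13.20 and 13.14) stood high, whereas 14 of the 23 members of that list lay under 4 on all arrays, down to Nts (2.15 ± 0.06) and Crh (2.05 ± 0.15).

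Markers of other cells were measured beside the granule genes. In RNA from whole cultures, fewer cells of a type and less RNA per cell cannot be told apart. Astrocyte and Bergmann glia genes had a median of 9.80, with 19 of 23 above 4. The intermediate filament Vim, which fibroblasts share, measured 13.37, 12.50 and 12.54, the fatty acid binding Fabp7 13.18, 11.93 and 12.60, and the water channel Aqp4 12.92, 11.42 and 12.35. Gfap was at 11.32, 10.31 and 10.03 and the glutamate transporter Slc1a3 at 10.05, 7.79 and 8.84. Replicate 1 was the highest array for 21 of the 23, and the log2 of the summed intensities of the list was 15.69, 14.75 and 14.95. Sox9 (4.22 ± 0.39) and Gjb6 (2.40 ± 0.20) were the lowest.

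The oligodendrocyte list ranged from rank 12 downwards. Mbp, a protein of compact myelin, measured 14.41, 14.27 and 14.01, and 5 of its 8 probe sets averaged 12.51 to 14.23 while the other 3 averaged 3.80 to 7.25. The myelin lipid enzyme Ugt8a (12.02, 11.42 and 10.94) and Cnp (12.18, 11.32 and 10.83) followed, and Mog was lower at 9.02, 7.11 and 6.86. Of the lineage factors Olig1 was at 10.06 ± 0.64, Olig2 at 5.21 ± 0.80 and Sox10 at 4.73 ± 0.20, and the progenitor marker Pdgfra was at 4.79, 3.46 and 3.52. Nkx2-2 (3.83 ± 0.25) and Gpr17 (2.86 ± 0.18) closed the list. In all 14 of 19 lay above 4, the median was 5.57, replicate 1 was the highest array for 17, and the log2 summed levels were 15.13, 14.74 and 14.44.

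Microglia and macrophage genes had a median of 5.38, with 13 of 19 above 4. Lyz2 (13.31, 12.98 and 13.51) and Ctss (11.62, 10.79 and 11.44), both lysosomal, led, with the signalling adaptor Tyrobp (9.28, 8.55 and 9.07). The receptor Csf1r was at 6.36, 5.79 and 6.82 and Cx3cr1 at 4.83 ± 0.22, while the defining markers Aif1 (3.59 ± 0.23), Tmem119 (3.05 ± 0.09), Itgam (2.92 ± 0.28) and P2ry12 (2.42 ± 0.11) were under 4. Replicate 2 was the lowest array for 12 of 19, with log2 summed levels of 13.94, 13.48 and 14.03. Replicate 1 was highest for 8 of 19 and replicate 3 for 9, so no array was highest for most of this list.

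Fibroblast genes had 9 of 18 above 4. The matrix proteins Sparc (13.20, 12.36 and 11.94), which glia also make, and Fn1 (10.13, 9.84 and 9.41) led, and Col3a1 followed at 7.19, 5.74 and 5.46. Dcn measured 7.59, 6.97 and 3.49. Col1a1 (3.73 ± 0.38) and Lum (3.80 ± 0.51) were near or under 4, and Aldh1a2 (3.06 ± 0.28) and Slc6a13 (2.99 ± 0.03) were the lowest. Replicate 1 was highest for 14 of 18, with log2 summed levels of 13.46, 12.69 and 12.27. Of the endothelial and pericyte markers 0 of 15 were above 4 on all arrays and 13 were under it on all. Without replicate 1 the count above 4 was 2. They ran from Cspg4 (4.01 ± 0.02), Flt1 (3.89, 4.08 and 4.00) and Esam (3.58 ± 0.13) down to Cdh5 (2.64 ± 0.14) and Tek (2.48 ± 0.16). Of the blood cell genes 0 of 10 were above 4 on all arrays and 8 were under it on all, with Hba-a2 highest (3.89, 3.68 and 4.30), then S100a8 (4.13, 3.36 and 3.48) and Cd3e (3.40 ± 0.10), and Hba-a1 (2.67 ± 0.20) and Ppbp (2.55 ± 0.07) lowest.

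Other cerebellar neurons gave a mixed reading. Of 13 Purkinje genes 3 lay above 4 on all arrays: Rora (11.20, 10.32 and 11.14), Lhx1 (9.32, 9.16 and 9.15) and Icmt (5.99, 6.05 and 5.82). Which cells gave these signals was not tested. Without replicate 2 the count was 5, as Calb1 and Car8 were under 4 on that array only. The defining Purkinje markers were low, with Pcp2 at 3.59 ± 0.20, Calb1 at 5.66, 3.89 and 4.32 and Car8 at 6.24, 3.86 and 4.32, and Ebf2 (3.03 ± 0.20) and Ppp1r17 (2.33 ± 0.06) were the lowest. Of 14 interneuron genes 9 lay above 4, led by Gad1, Lhx1 and the cadherin Cdh22 (8.94 ± 0.23), whereas Slc6a5 (3.73 ± 0.39), Sst (3.54 ± 0.03) and Ptf1a (2.48 ± 0.05) were under it. Of 9 genes of unipolar brush cells and cerebellar nuclei 3 lay above 4, Plcb4 (12.35, 12.69 and 12.60), Calb2 and Eomes (6.38, 7.21 and 5.99), while Lmx1a (2.75 ± 0.12) and Lhx2 (2.57 ± 0.08) did not. Among inflammation genes 10 of 20 lay above 4. The secreted Lcn2 was at 13.52 ± 0.71, the class I light chain B2m at 12.40, 11.60 and 11.38, the acute-phase Saa3 at 11.99, 11.60 and 10.02 and the chemokine Cxcl1 at 11.76, 10.80 and 8.92. The class I heavy chains H2-D1 (10.43 ± 0.24) and H2-K1 (9.23 ± 0.29) and Ifitm3 (8.76 ± 0.38) came next. Interferon targets Ifit1 (2.77 ± 0.14) and Oasl2 (2.72 ± 0.10) were the lowest, and replicate 1 was the highest array for 17 of 20. Astrocyte, oligodendrocyte, fibroblast and inflammation genes were thus all highest on replicate 1 in most members, and what share of any other difference between the arrays goes with them was not tested. Replicate 1 was also highest for 16 of 18 ribosomal protein genes, though for only 2 of 23 of oxidative phosphorylation. The share of all genes highest on replicate 1 is not given here, so these counts cannot be read as particular to the lists named.

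**Figure D4:**
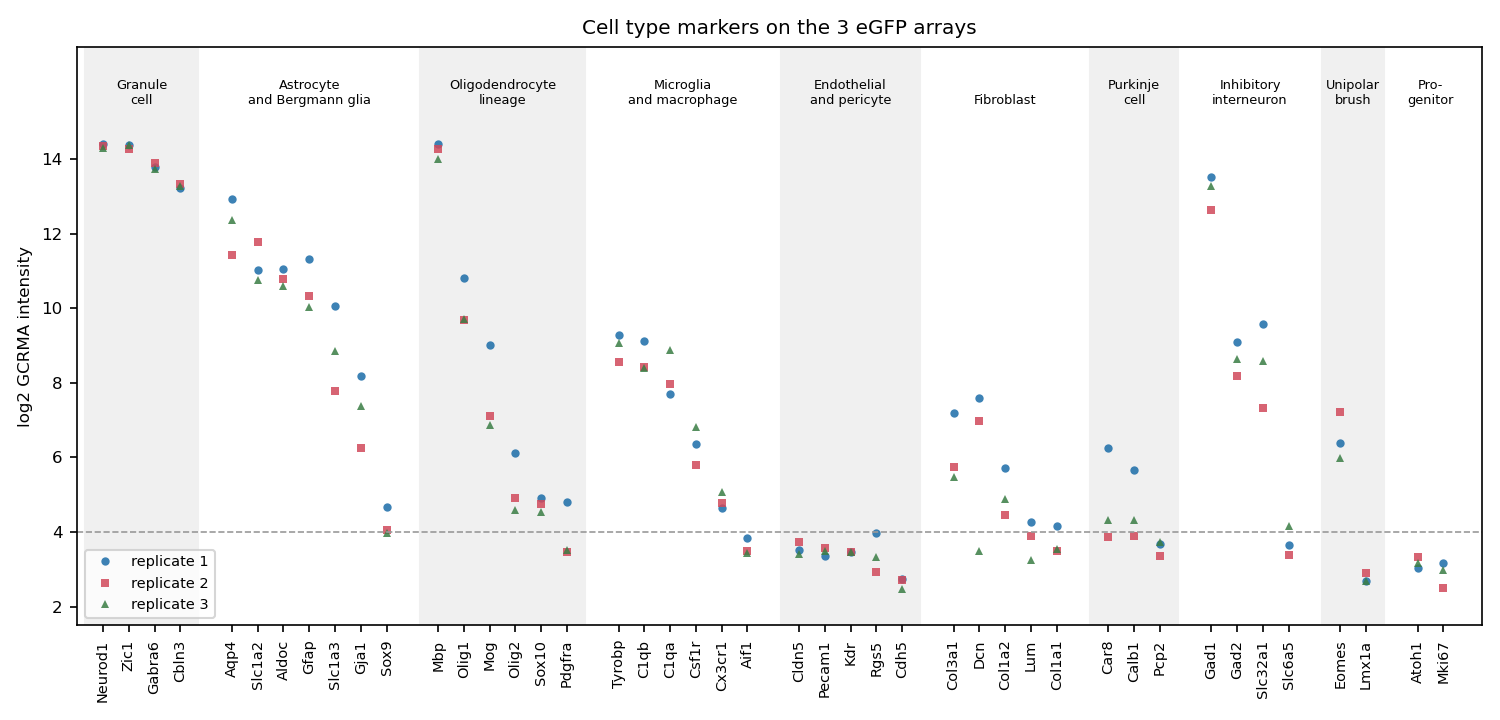
Log2 GCRMA intensity (y axis) of cell type markers on the 3 eGFP arrays (colour and symbol give the replicate), grouped by cell type, with the level of 4 dashed. The granule markers lie above 13 on each array, the endothelial markers lie under 4, and most astrocyte and oligodendrocyte markers are highest on replicate 1.

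Stress genes were measured almost throughout, with 17 of 18 above 4. The chaperones Hspa5 (12.41, 12.84 and 12.62) and Hsp90b1 (12.64, 12.45 and 12.53) and the factor Atf4 (11.75, 12.52 and 11.87) led, and Hspb1 (4.04 ± 0.03) and Trib3 (3.89 ± 0.20) closed the list. Genes of other organs were under 4 on all arrays in 24 of 29, for example Alb (2.60 ± 0.05), Umod (2.24 ± 0.27) and Gcg (2.15 ± 0.03). The 3 above 4 on all arrays were Ttr, the keratin Krt10 (9.41, 8.28 and 8.73) and Oxt (4.28 ± 0.11).

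Of 30 activity-regulated genes 23 lay above 4 on all arrays, and 10 of these 23 had an SD above 1, more than in any other of the 36 lists. The list's median was 7.85, and the array medians were 6.07, 8.70 and 7.37. Replicate 2 was the highest array for 21 of 30 and replicate 1 the lowest for 21, with the same shares over all genes not given here. The immediate early gene Egr1 was at 11.38, 11.66 and 12.64, Fos at 8.62, 12.97 and 12.09 and Egr3 at 9.43, 11.85 and 10.42. Npas4, a factor induced by calcium entry, measured 3.02, 10.43 and 9.11, at background on replicate 1 and high on the other arrays. Bdnf measured 4.86, 9.75 and 5.85, Nr4a1 4.91, 8.26 and 6.86, and Gadd45b 7.13, 10.38 and 7.51. Not every member followed: Jun was highest on replicate 1 (10.09, 8.15 and 8.98) and Junb varied little (5.18, 5.61 and 5.46). Arc (3.64, 3.99 and 3.97) was under 4 on every array, as were Egr4 (3.25 ± 0.18) and Nptx2 (2.93, 3.15 and 2.93).

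Over all genes above 4 on the 3 arrays, 400 of 9816 (4.07%) had an SD above 1. Without replicate 3 the count was 665. Replicate 1 lay more than 1 above both other arrays in 405 genes and more than 1 below both in 71. Replicate 2 did so in 169 and 303 genes, and replicate 3 in 21 and 74. Replicate 3 was thus the array least often apart.

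The 12 genes with the largest SD included 4 of the activity list. Ttr, the thyroid hormone carrier of choroid plexus and liver, had the widest spread, with 14.14, 4.00 and 14.35 and an SD of 5.92. All 4 of its probe sets were low on replicate 2 and high on the other arrays. The other choroid plexus genes stayed near or under 4, with Folr1 at 4.30, 3.81 and 4.31, Kl at 3.49, 2.64 and 3.11, Kcne2 at 4.48, 2.46 and 3.18 and Clic6 at 4.30, 4.14 and 4.26, apart from Otx2 (8.44, 7.21 and 7.45) and Rarres2 (4.71 ± 0.28). Aqp1 (3.14, 2.77 and 3.09) and Dynlrb2 (2.80 ± 0.06), of choroid plexus and ciliated ependyma, were the lowest of that list. Ttr therefore stood alone among these genes in its level on replicates 1 and 3. In direction, replicate 2 was the lowest array for 9 of the 12 members of that list, Ttr included. However, 7 of the 12 had a mean under 4, and the same share over all genes is not given here.

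Of the others, 6 were highest on replicate 2: the orphan nuclear receptor Nr4a3 (4.22, 9.53 and 5.61), Bdnf, Klhdc8a (4.58, 9.22 and 5.46), the secreted granin Vgf (6.65, 11.11 and 7.23), the endopeptidase Phex (5.74, 9.87 and 6.34) and the phosphodiesterase Pde1c (6.01, 9.63 and 5.99). Fos was also highest on replicate 2, followed by replicate 3. Grm5, the calmodulin regulator Pcp4 (12.04, 7.86 and 10.98) and Ly6h (9.49, 5.46 and 8.78) were lowest on replicate 2, and the cytokine Il33 was low on replicate 3 (10.69, 10.61 and 6.72). All of the 12 except Il33 had their highest or lowest value on replicate 2. With only 3 arrays any array is often the highest or lowest, and the same share over all genes is not given here. A further 7 genes had larger SDs than Pde1c but were not eligible, since they lay under 4 on at least 1 array: Xist (5.44), Npas4 (3.95), Gfra2 (2.41), Grin2b (2.38), Slc17a6 (2.38), Cxcl3 (2.36) and Dcn (2.21).

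**Figure D5:**
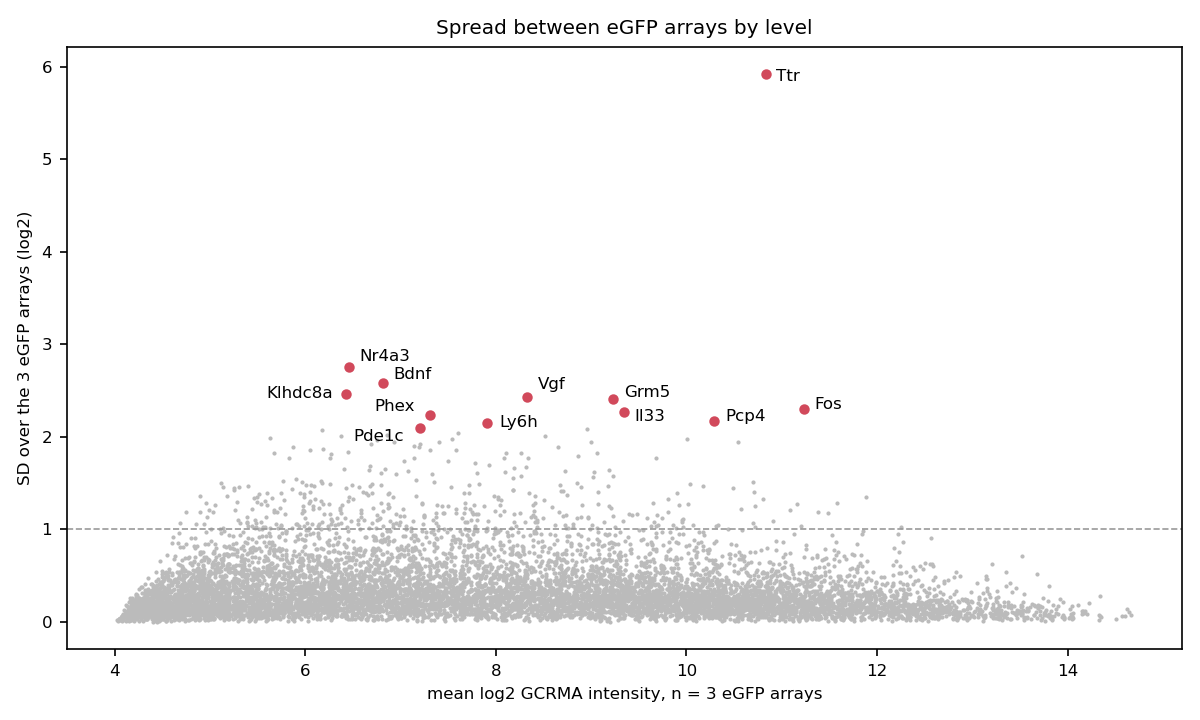
SD over the 3 eGFP arrays (y axis, log2) against mean log2 GCRMA intensity (x axis) for the 9816 genes above 4 on all 3 arrays, with the 12 largest SDs named and an SD of 1 dashed. Ttr is farthest out at an SD of 5.92, and 400 genes lie above the dashed line.

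The same replicate numbers recur in the β4 groups, and which array was highest often recurred with them. For 306 of the 400 genes with an SD above 1 (76.5%) the array that was highest among the eGFP arrays had the same number as the highest one in all 3 β4 groups, against 4362 of all 9816 genes (44.4%). For the lowest array these shares were 61.5% and 41.2%. Since the SD itself helps to fix which array is highest, the higher share among the 400 is a description only. Bdnf was highest on replicate 2 in every group, with 9.66, 10.60 and 6.74 in β4a, 6.88, 10.33 and 7.02 in β4b, 4.75, 10.35 and 7.36 in β4e, and the eGFP values above. Npas4 did not keep its order, with 13.77, 13.55 and 6.98 in β4a, 12.89, 12.27 and 7.35 in β4b and 3.20, 11.90 and 6.52 in β4e.

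Sex-linked transcripts also went by replicate number. Xist, the RNA of the inactive X chromosome of females, measured 3.86, 3.57 and 13.13 on the eGFP arrays, and all 3 of its probe sets were high on replicate 3 only. In the β4 groups it was 13.00, 12.99 and 13.16 on the arrays numbered 3 and at most 3.85 on those numbered 1 and 2. The Y-linked Eif2s3y measured 10.40, 10.69 and 10.15, Uty 7.65, 7.16 and 6.21 and Kdm5d 7.94, 7.14 and 5.86, so Y-linked genes were above 4 on every eGFP array and lowest on replicate 3. Replicate 3 thus differed from the other arrays in Xist, and any other difference of replicate 3 cannot be told apart from this one. The sex of the pups is not given in the labels.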

How the data were processed

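The arrays' values are log2 intensities that were deposited after summarisation with GCRMA, per the submitters' processing notes (version not given in the sources used here). GCRMA corrects background by probe sequence, equalises the arrays' distributions and reports each probe set once, so values near the floor are compressed. On the 3 eGFP arrays they ran from 1.30 to 15.0, with medians of 3.86 to 3.90, and were not rescaled. Groups and replicate numbers came from the titles.

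Of 45101 probe sets, 64 were controls, 932 had several gene symbols and 9160 had none in the platform annotation. Each gene took its probe set with the highest mean among those with 1 symbol. Python 3.11.15, pandas 2.3.3 and numpy 2.4.6 gave means, SDs and counts, after the ranking was tested on simulated data. No hypothesis test was run on this 1 group, and 3 arrays limit the precision.

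The members, the 36 lists and the level of 4 were chosen with earlier results of these data known. No single-gene probe set carried 72 listed symbols, which were not analysed here. Genes named by rule were the top 20, the 3 highest and 2 lowest of each list, the 4 markers, Cacnb4 with the pore and β subunit genes, the 12 largest SDs, the 6 smallest SDs among means above 10, and 6 list members whose probe sets disagreed by over 4. Others were named after their values were seen. Alternatives changed the level, the probe set choice, the averaging and the arrays.

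Promoters are the first RefSeq window per gene (GRCm38.p6). The CpG ratio is the count of CG times the window length, over the product of the counts of C and G.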

Additional observations from a re-analysis of the deposited data

How the results depend on the processing

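No paired analysis was possible because only 1 group was described and no test was run. The count of genes above the level on all 3 arrays, 9816, was 7927 at a level of 5, 6579 at 6, 12162 at the 95th percentile of the olfactory receptor genes, 10431 for at least 2 of 3 arrays, 8529 with the median over a gene's probe sets, 9420 without probe sets ending in _x_at or _s_at, and 9978 to 10082 with 1 array left out. The 392 list members above it became 295 to 482 under the same settings. The count of genes with an SD above 1, 400, was 238 with the median over probe sets and 321 among genes with a mean above 6. With 1 array left out, an alternative chosen after seeing the data, it was 306 to 665, the highest without replicate 3, when replicates 1 and 2 alone were left. Medians over probe sets lowered 34 of 36 list medians (median difference -0.72) and kept 62 of the top 100 genes, against 77 without the _x_at and _s_at probe sets and 93 to 96 with 1 array left out, while of the 10 highest lists 9 were shared without replicate 2 and with the median over the 3 arrays, and all 10 under the other settings. The activity list's median of 7.85 was 8.44 without replicate 1, 6.50 without replicate 2, 7.70 without replicate 3 and 6.45 with the median over probe sets. Signal near 4 limits the lists at the foot of the ladder, where low probe set response and low transcript level cannot be told apart.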
